A study of Mus musculus with 7 samples.

Results

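The genes described here encode enzymes that make serine, folate-bound one-carbon units, proline, asparagine, purine and pyrimidine nucleotides and polyamines, together with Atf4, a transcription factor that drives several of them. They are the 33 rows of the deposited expression table whose symbol is on a list of these genes, out of 34745 rows in all. Each symbol matched 1 row. The list was drawn up with earlier results of these data known. RNA sequencing was done on naive CD4 T cells, the resting helper T cells that precede an antigen encounter, taken from the spleen by negative selection. The wild-type (WT) group held 3 C57BL/6 mice, and the gain-of-function (GOF) group held 4 C57BL/6 mice heterozygous for a PIK3CD GOF allele. All were males aged 8 weeks with littermate controls, and the cells of neither group were treated. PIK3CD is the catalytic delta subunit of phosphoinositide 3-kinase, a lipid kinase that signals through AKT and mTOR. The labels name neither the mutation nor the cells in which the allele is expressed.

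As background, serine is made from a glycolytic intermediate, and serine hydroxymethyltransferase then splits it into glycine and a one-carbon unit carried by folate. Those units, passed between mitochondria and cytosol by parallel sets of enzymes, are built into the purine ring and into thymidylate, while aspartate and glutamine supply the pyrimidine ring. Polyamines are small cations made from ornithine and decarboxylated S-adenosylmethionine. T cells are known to induce many of these enzymes when they are activated and start to divide, and MYC, ATF4 and mTOR signalling are known inducers. Naive cells rest outside the cell cycle.

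More of the synthesis genes fell than rose in the GOF cells. All 33 passed the filter on low counts, and 8 fell, 1 rose and 24 did not pass the test (edgeR quasi-likelihood, adjusted p under 0.05 over all 12668 genes tested). The 8 are Aldh18a1, Shmt2, Mthfd1l, Phgdh, Impdh2, Ctps2, Cad and Paics, and the 1 is Atic. Of all genes tested 14.5% were called lower and 16.8% higher, against 24.2% and 3.03% of these genes, and 31.3% of all genes were called in either direction. Because the list was chosen with earlier results of these data known, these shares only describe it. The median log2 fold change, always GOF minus WT, was -0.15 for the 33 genes and 0.01 for all genes. For 11 of the 33 genes every GOF library lay under every WT library (18.2% of all genes), and for 4 every GOF library lay over every WT library (21.5% of all genes, 39.8% in either direction). The sizes were modest: 3 of the 33 log2 fold changes exceeded 1 in either direction, those of Aldh18a1, Asns and Shmt2. The split of calls depended on the scaling, with 6 lower and 4 higher in limma on log2(FPKM + 1), where all genes gave 1390 lower and 2598 higher against 1838 and 2130 in edgeR. Aldh18a1, Shmt2, Mthfd1l and Phgdh fell and Atic rose on that scale too. Leaving out GOF replicates 1 and 3, which stand apart in markers of other cells, left 3 lower and 0 higher in edgeR. The 3 are Aldh18a1, Shmt2 and Mthfd1l. In that fit 8.34% of all genes were lower and 8.53% higher, so 3 of 33 lower is near the share of all genes. Leaving out GOF replicates 2 and 4 left 5 lower and 0 higher, against 10.5% and 13.6% of all genes.

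**Figure D1:**
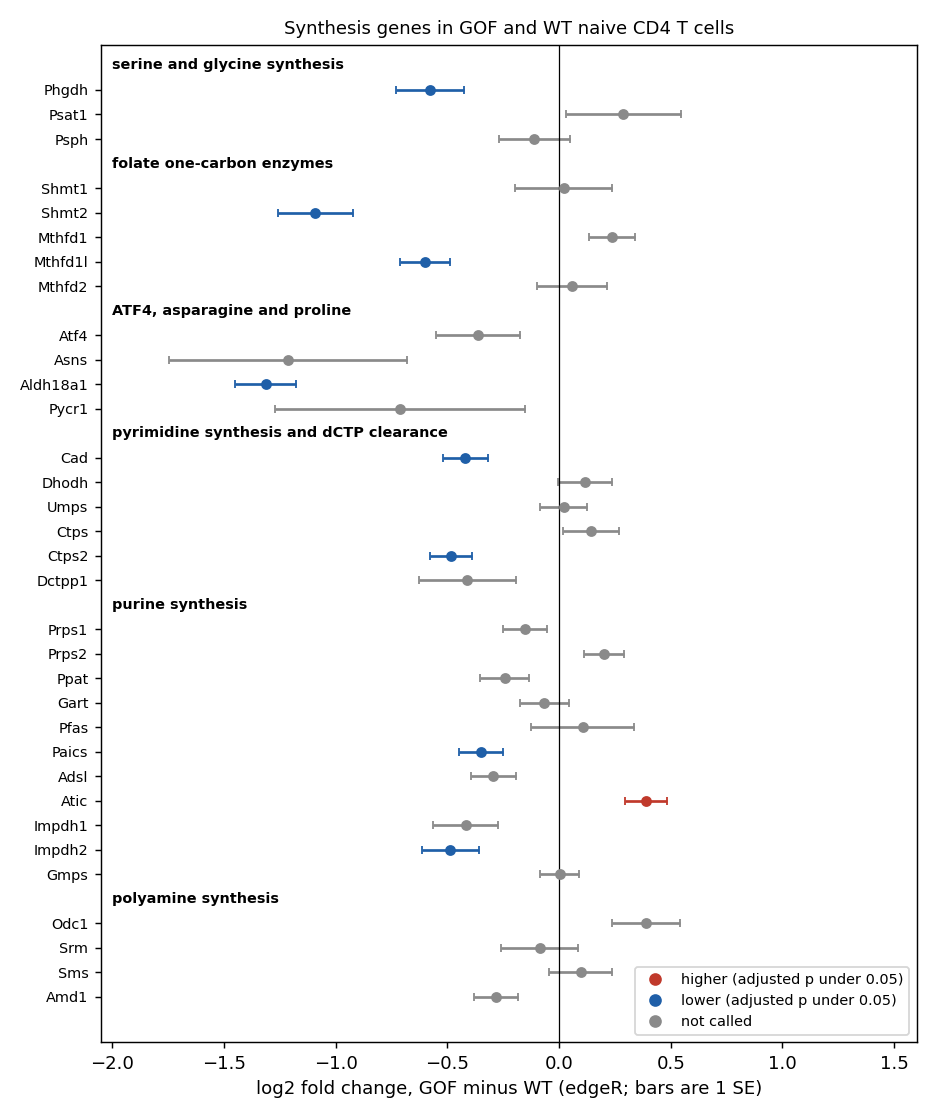
The log2 fold change of each of the 33 genes (x axis, GOF minus WT, bars of 1 standard error from edgeR), grouped by pathway on the y axis and coloured by call. The 8 genes called lower run from -1.31 for Aldh18a1 to -0.35 for Paics, and the 1 called higher is Atic at 0.39.

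The libraries held between 14497957 and 16293539 counts. Pik3cd itself lay between 938 and 1511 CPM (the count scaled to library size, with TMM factors between libraries) in WT and between 538 and 765 CPM in GOF (log2 fold change -0.80, edgeR adjusted p = 0.0154, or -0.58 and 0.106 without GOF replicates 1 and 3). The counts do not show the allele. Defining markers of naive CD4 T cells were present in all libraries, and the summed level of 9 of them was 6970 to 7886 CPM in WT and 7504 to 8544 CPM in GOF. Markers of other cells moved with the genotype, where 16.8% of all genes tested were higher and 14.5% lower. Of the myeloid markers 15 of 16 rose, and their summed level was 52.3 to 94.2 CPM in WT and 186 to 619 CPM in GOF, highest in GOF replicates 1 and 3. All 9 neutrophil markers rose, from 0.482 to 8.69 CPM in WT to 61.2 to 214 CPM in GOF. For B cells 8 of 12 rose (376 to 511 CPM against 802 to 1409 CPM), and for NK and CD8 T cells 10 of 12 rose (64.4 to 85.6 CPM against 142 to 201 CPM). Of 6 red blood cell genes tested 4 rose (4.18 to 18.5 CPM against 18.8 to 70.4 CPM), and of 4 plasma cell genes tested 1 rose and 1 fell (66.7 to 129 CPM against 99.9 to 144 CPM). No gene of the myeloid, neutrophil, B cell, NK and CD8 or red blood cell lists fell. Camp of neutrophils and Tnfrsf17 of plasma cells were at 0 counts in all WT libraries, as were 2 red blood cell genes, Car1 among them. These markers move with every difference described here and their part in it was not tested. Without GOF replicates 1 and 3 the log2 fold changes of the 8 lower genes ran from -1.34 for Aldh18a1 to -0.38 for Impdh2, against -1.31 to -0.35 with all libraries. Of the 8, 3 kept their calls, and Impdh2 went from -0.49 to -0.38 (edgeR adjusted p = 0.142). GOF replicates 2 and 4 also exceeded WT in myeloid (186 and 210 CPM) and neutrophil markers (61.2 and 76.7 CPM). That fit thus does not take the markers of other cells out. In bulk RNA fewer cells of a type and less RNA per cell cannot be told apart.

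**Figure D2:**
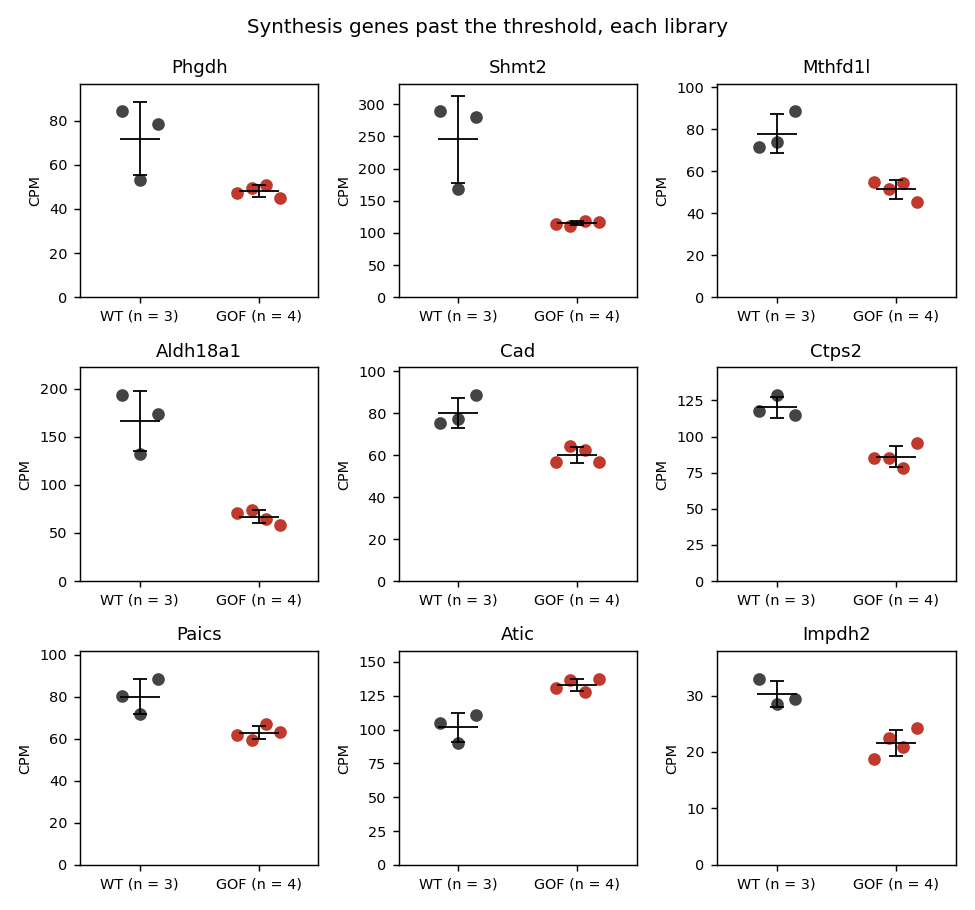
CPM (y axis, from 0) of the 9 genes past the threshold in each library, with WT replicates 1 to 3 and GOF replicates 1 to 4 from left to right, and the mean with 1 SD in black. In each panel the 4 GOF libraries lie on the same side of the 3 WT libraries, above them for Atic and below them for the other genes.

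Serine synthesis changed at its first step. Phgdh, the dehydrogenase that commits glycolytic carbon to serine (mm10 chromosome 3, 98313170 to 98339990), stood at 84.1, 53.0 and 78.5 CPM in WT and at 47.2, 49.6, 50.8 and 45.02 CPM in GOF. WT replicate 2 was the lowest WT library and lay close to the GOF range. The mean fell from 71.9 ± 16.6 CPM in WT (SD, n = 3) to 48.1 ± 2.57 CPM in GOF (SD, n = 4). Its log2 fold change was -0.58, with a standard error (SE) of 0.15 and an edgeR adjusted p of 0.0192. Phgdh stood at -0.76 on the log2 scale without WT replicate 2 (adjusted p = 0.0011). It missed the threshold without WT replicate 1, at -0.45 (adjusted p = 0.0623), and also without WT replicate 3 and without GOF replicate 1 or 4 (adjusted p = 0.0713, 0.0518 and 0.0524). Psat1, the transaminase of the middle step, was at 31.4, 17.7 and 25.6 CPM in WT and at 33.8, 19.2, 30.1 and 38.5 CPM in GOF, with overlapping groups (log2 fold change 0.29, adjusted p = 0.430). Psph, the phosphatase that releases serine, lay between 17.5 and 26.2 CPM in WT and between 20.1 and 23.2 CPM in GOF. The Psph locus shares 452 bases with Cct6a, a chaperonin gene with 17569 counts over the libraries against 2342 for Psph, so that some of its counts may belong to that gene.

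In the folate cycle 2 of the 3 mitochondrial enzymes on the list fell, and neither of the 2 cytosolic enzymes passed the test. Of all genes tested 14.5% were lower and 16.8% higher, and so few enzymes do not set the compartments apart. Shmt2, the mitochondrial serine hydroxymethyltransferase (mm10 chromosome 10, 127517123 to 127522444), was at 289, 168 and 279 CPM in WT and at 115, 110, 119 and 117 CPM in GOF. The GOF libraries were close together and all lay below WT replicate 2, again the lowest WT library. It fell 2.13-fold, with means of 245 ± 67.2 CPM in WT (SD, n = 3) and 115 ± 3.65 CPM in GOF (SD, n = 4). The log2 fold change was -1.09 (SE 0.17, edgeR adjusted p = 0.00142). It passed the threshold under all 17 alternatives, with log2 fold changes between -1.31 and -0.96. Shmt1, the cytosolic form, was at 6.11, 7.44 and 11.1 CPM in WT and at 8.79, 8.37, 8.24 and 7.91 CPM in GOF. Its groups overlapped, and its log2 fold change of 0.02 (SE 0.22, adjusted p = 0.954) rests on 85 to 159 counts per library. The Shmt1 locus also shares 184 bases with Smcr8, which had 7594 counts over the libraries.

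Mthfd1l, the mitochondrial enzyme that releases formate for export to the cytosol (mm10 chromosome 10, 3973118 to 4167081), was at 71.5, 73.9 and 88.4 CPM in WT and at 54.9, 51.4, 54.3 and 45.1 CPM in GOF. The groups were well apart. Mthfd1l fell 1.52-fold (log2 fold change -0.60, SE 0.11, edgeR adjusted p = 0.00415), and it too passed under all 17 alternatives. Mthfd1, the cytosolic enzyme that takes formate up into folate, was at 61.3, 49.6 and 60.4 CPM in WT and at 68.9, 68.7, 68.1 and 63.7 CPM in GOF. The GOF libraries all exceeded the WT libraries, but the log2 fold change of 0.24 (SE 0.10) did not pass in edgeR (adjusted p = 0.110), while in limma on log2(FPKM + 1) it was 0.30 and did (adjusted p = 0.0339). Without WT replicate 2 the edgeR value was 0.14 (adjusted p = 0.278). Mthfd2, the mitochondrial dehydrogenase and cyclohydrolase typical of dividing cells, was at 70.8, 43.1 and 64.1 CPM in WT and between 58.1 and 65.0 CPM in GOF (log2 fold change 0.06, adjusted p = 0.809). Every GOF value of Mthfd2 thus lay within the WT range.

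Ratios of paired isozymes within a library need no scaling between libraries, and 4 of 5 did not overlap between the groups. Among single genes 39.8% of all tested did not overlap in CPM, and no such share was computed for ratios of other gene pairs. Shmt2, Mthfd1l and Ctps2 were each called lower, so their ratios partly restate those calls. They were computed from FPKM, which corrects for gene length, as log2 of (FPKM + 0.1) of the first gene over the second. With 3 against 4 libraries the smallest 2-sided exact permutation p is 0.0571, so that no ratio could pass 0.05. Shmt2 stood above Shmt1 by 6.74, 5.70 and 5.89 on the log2 scale in WT and by 4.93, 4.94, 5.07 and 5.09 in GOF, a difference of -1.10 (exact permutation p = 0.0571, 0.0714 adjusted over the 5 ratios). Mthfd1l against Mthfd1 was at -0.54, -0.19 and -0.21 in WT and between -1.25 and -1.08 in GOF, a difference of -0.83 with the same p. The mitochondrial share was thus lower in every GOF library for both pairs.

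Among nucleotide isozymes, the log2 ratio of Ctps2 to Ctps, the 2 genes for CTP synthase, was 1.30, 1.14 and 0.87 in WT and between 0.40 and 0.52 in GOF (difference -0.63, exact permutation p = 0.0571, 0.0714 adjusted). Prps2 to Prps1, which encode phosphoribosyl pyrophosphate synthetases, went the other way, from between -0.07 and 0.22 in WT to between 0.31 and 0.55 in GOF (difference 0.36, exact permutation p = 0.0571, 0.0714 adjusted). Impdh2 to Impdh1, the IMP dehydrogenases, overlapped between the groups, at -1.84, -1.45 and -1.41 in WT and between -1.90 and -1.56 in GOF (difference -0.09, exact permutation p = 0.571). Naive cells of both genotypes thus held more Impdh1 than Impdh2 transcript per length in every library.

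**Figure D3:**
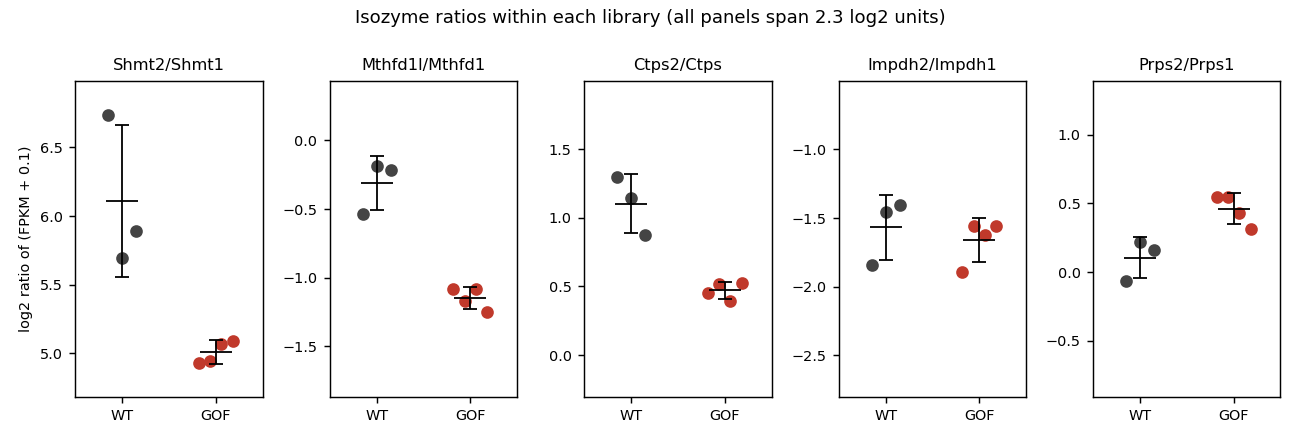
Log2 ratio of (FPKM + 0.1) of paired isozymes (y axis) in each WT and GOF library, with mean and 1 SD in black; every panel spans the same number of log2 units. The groups are apart for Shmt2/Shmt1, Mthfd1l/Mthfd1, Ctps2/Ctps and Prps2/Prps1 and overlap for Impdh2/Impdh1.

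Proline and asparagine genes include the largest change. Aldh18a1, the mitochondrial synthase that makes the common precursor of proline and ornithine from glutamate (mm10 chromosome 19, 40550257 to 40588463), was at 193, 132 and 174 CPM in WT and at 71.0, 73.6, 64.6 and 58.7 CPM in GOF. Every GOF library was below the lowest WT library by a wide margin. It fell 2.48-fold, with means of 166 ± 31.0 CPM in WT (SD, n = 3) and 66.97 ± 6.72 CPM in GOF (SD, n = 4). The log2 fold change was -1.31 (SE 0.14, edgeR adjusted p = 0.000173), and the gene passed under all 17 alternatives. Pycr1, the reductase that completes mitochondrial proline synthesis, had 21 to 49 counts per library in WT and 6 to 37 in GOF, and Asns, asparagine synthetase, had 12 to 33 and 6 to 15. At these counts the log2 fold changes of -0.71 (SE 0.56, adjusted p = 0.369) and -1.21 (SE 0.53, adjusted p = 0.115) did not pass. Both genes also varied within the groups, and without WT replicate 3 Pycr1 was at -0.28 and Asns at -0.63. The part of depth in this was not tested. Atf4 was the most highly expressed of the 33 genes per length, with a mean FPKM of 228 in WT and 187 in GOF. It was at 492, 274 and 453 CPM in WT and at 287, 324, 287 and 365 CPM in GOF, with WT replicate 2 below all GOF libraries. Its log2 fold change of -0.36 (SE 0.19) did not pass (adjusted p = 0.171), but without WT replicate 2 it was -0.58 and did (adjusted p = 0.0078), and without WT replicate 1 it was -0.21 (adjusted p = 0.459). ATF4 is regulated largely through its translation, which these data do not measure.

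WT replicate 2 was the lowest of the 3 WT libraries for 17 of the 33 genes, against 34.1% of all genes tested. Beside Phgdh, Shmt2 and Atf4 the gap was plain in Mthfd2, Odc1 and Srm. The summed level of 34 other ATF4 targets and stress genes showed it too, at 3290, 2550 and 3389 CPM in WT and 2479 to 2542 CPM in GOF, so that WT replicate 2 lay next to the GOF range. Without that library 10 of the 33 genes were lower and 1 higher (edgeR), against 12.8% and 16% of all genes. Atf4 and Impdh1 were added to the 8.

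**Figure D4:**
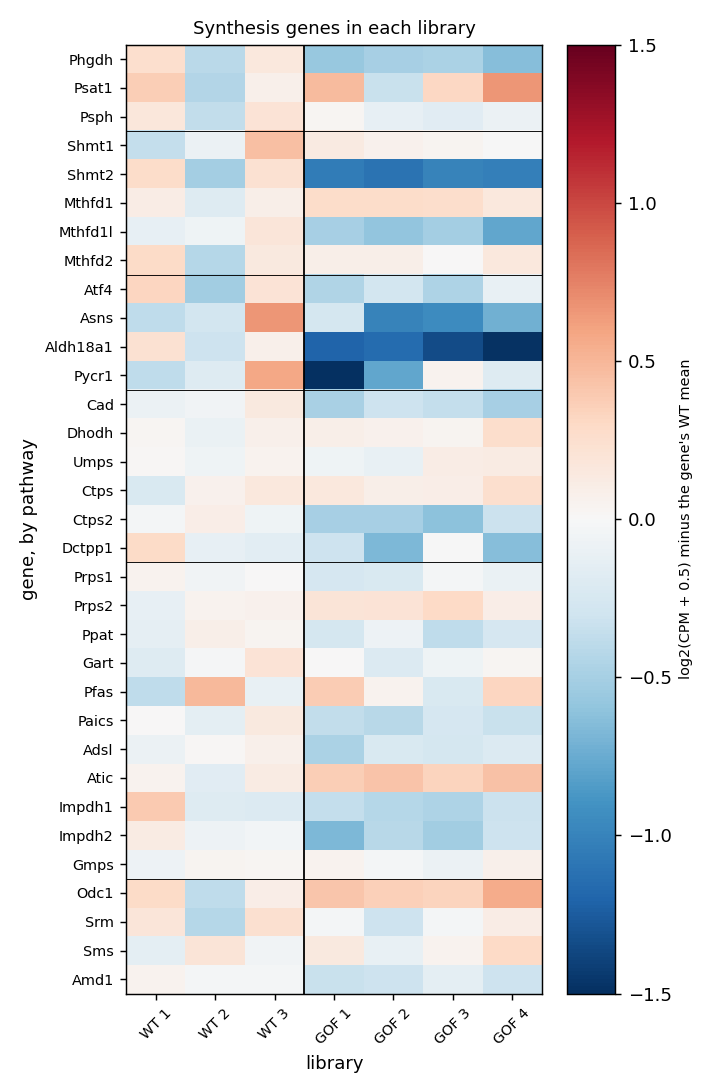
Level of each of the 33 genes (rows, by pathway) in each library (columns), as log2(CPM + 0.5) minus the gene's WT mean; the colour scale ends at 1.5 in either direction. Blue GOF columns mark Shmt2, Aldh18a1 and Mthfd1l, and WT replicate 2 is blue for Phgdh, Shmt2, Mthfd2, Atf4, Odc1 and Srm.

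Pyrimidine synthesis was lower at its entry and in 1 CTP synthase. Cad, the trifunctional enzyme of the first steps (mm10 chromosome 5, 31054780 to 31078479), was at 75.3, 77.1 and 88.5 CPM in WT and at 56.9, 64.3, 62.6 and 56.5 CPM in GOF. The groups did not overlap, and Cad fell with a log2 fold change of -0.42 (SE 0.10, edgeR adjusted p = 0.0120), a call lost in limma on log2(FPKM + 1) at -0.29 (adjusted p = 0.0565). Ctps2 (mm10 chromosome X, 162901238 to 163032508) was at 117, 129 and 115 CPM in WT and at 85.1, 84.8, 78.2 and 95.7 CPM in GOF. Its mean was 120.2 ± 7.35 CPM in WT (SD, n = 3) and 85.96 ± 7.24 CPM in GOF (SD, n = 4), and it fell with a log2 fold change of -0.48 (SE 0.09, edgeR adjusted p = 0.0048). Leaving out GOF replicates 1 and 3 ended that call (adjusted p = 0.053).

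The other pyrimidine genes did not pass. Ctps, the CTP synthase known to be needed for lymphocyte proliferation, was at 21.98, 26.9 and 28.9 CPM in WT and between 27.4 and 30.9 CPM in GOF (log2 fold change 0.15, adjusted p = 0.413). Dhodh, the mitochondrial dehydrogenase of the pathway, and Umps, which makes UMP, had log2 fold changes of 0.12 and 0.02 with SEs of 0.12 and 0.11. Umps lay between 30.7 and 33.5 CPM in WT and between 29.9 and 35.2 CPM in GOF. Dctpp1, a pyrophosphatase that clears dCTP, was at 11.8 to 16.2 CPM in WT and 8.05 to 13.2 CPM in GOF (log2 fold change -0.41, SE 0.22, adjusted p = 0.180).

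In purine synthesis 2 of 11 genes fell and 1 rose, near the shares of all genes tested (14.5% lower and 16.8% higher). Paics, which carries out a pair of middle steps (mm10 chromosome 5, 76951307 to 76967509), was at 80.2, 71.8 and 88.4 CPM in WT and at 61.9, 59.6, 67.2 and 63.1 CPM in GOF. It fell with a log2 fold change of -0.35 (SE 0.10, edgeR adjusted p = 0.0264), the smallest of the called falls. Paics kept its call under 6 of 17 alternatives. Ppat, the first committed enzyme, whose locus overlaps that of Paics by 272 bases, was at 42.1 to 49.4 CPM in WT and 35.5 to 43.9 CPM in GOF (log2 fold change -0.24, adjusted p = 0.121). Atic, which closes the purine ring in the last steps to IMP (mm10 chromosome 1, 71557150 to 71579631), was at 105, 89.9 and 110 CPM in WT and at 131, 137, 128 and 137 CPM in GOF. All GOF libraries lay above WT, with means of 133 ± 4.45 CPM in GOF (SD, n = 4) and 102 ± 10.6 CPM in WT (SD, n = 3). Atic rose with a log2 fold change of 0.39 (SE 0.09, edgeR adjusted p = 0.0119).

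Impdh2, the IMP dehydrogenase induced in dividing lymphocytes (mm10 chromosome 9, 108560286 to 108565584), was at 32.9, 28.6 and 29.3 CPM in WT and at 18.7, 22.5, 20.9 and 24.2 CPM in GOF. The groups did not overlap, and Impdh2 fell with a log2 fold change of -0.49 (SE 0.13, edgeR adjusted p = 0.0180). Its call was lost without WT replicate 1 (adjusted p = 0.0551) and without GOF replicate 1 (adjusted p = 0.0517). Impdh1, the other form, was at 171, 114 and 113 CPM in WT and at 102, 96.8, 94.1 and 104 CPM in GOF. Its groups did not overlap either, but WT replicate 1 stood far above the others and the log2 fold change of -0.42 (SE 0.15) did not pass (adjusted p = 0.0572). Without WT replicate 1 it was -0.20 (adjusted p = 0.131), and without WT replicate 2 it was -0.52 and passed (adjusted p = 0.0362). Adsl, adenylosuccinate lyase, was at 68.7 to 77.4 CPM in WT and 52.7 to 63.4 CPM in GOF, and its log2 fold change of -0.29 lay just outside the threshold (adjusted p = 0.0509).

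Gart, Gmps and Pfas, which carry out further steps of the ring and of GMP synthesis, overlapped between the groups, with log2 fold changes of -0.07, 0.0037 and 0.11. Gmps was at 66.8, 72.4 and 71.4 CPM in WT and at 72.8, 68.8, 66.1 and 74.0 CPM in GOF, with an SE of 0.09 on the log2 scale. Pfas varied more, from 15.3 to 28.3 CPM in WT and from 17.0 to 26.2 CPM in GOF. Prps2, a synthetase of the ribose donor for all nucleotides, was at 87.9, 99.4 and 99.98 CPM in WT and at 109, 111, 118 and 103 CPM in GOF. Its groups did not overlap, with a log2 fold change of 0.20 (SE 0.09, edgeR adjusted p = 0.115), which passed with upper-quartile scaling at 0.28 (adjusted p = 0.0379). Prps1 was at 45.2 to 48.7 CPM in WT and 39.5 to 46.1 CPM in GOF (log2 fold change -0.15, adjusted p = 0.265). A copy of it elsewhere in the genome, Prps1l3, took 5375 counts over the libraries against 4691 for Prps1, and the summed level of both genes was 93.6 to 107 CPM in WT and 84.2 to 99.3 CPM in GOF. The Prps1 value and its ratio to Prps2 are therefore uncertain.

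Polyamine synthesis had no gene past the threshold. Odc1, ornithine decarboxylase, the rate-limiting enzyme and a textbook MYC target, was at 83.5, 52.4 and 73.5 CPM in WT and at 91.4, 87.6, 86.1 and 101 CPM in GOF. Every GOF library exceeded every WT library, and the log2 fold change was 0.39 (SE 0.15, edgeR adjusted p = 0.0805). It passed in limma on log2(FPKM + 1) at 0.47 (adjusted p = 0.0369) and without WT replicate 1 at 0.54 (adjusted p = 0.0312). Without WT replicate 2, the lowest for Odc1, it was 0.22 (adjusted p = 0.163). Amd1, which decarboxylates S-adenosylmethionine, was at 38.3, 35.9 and 36.1 CPM in WT and at 29.0, 29.6, 33.02 and 29.5 CPM in GOF, with the groups apart and a log2 fold change of -0.28 (SE 0.10, adjusted p = 0.0567). Copies of Amd1 with at least 95% identity, Amd-ps3 and Amd2, held 810 and 175 counts against 3488, and the Amd1 value is uncertain to that extent. AW146154, with a stretch like Odc1, held 1107 counts against 8752. Srm and Sms, the spermidine and spermine synthases, overlapped between the groups with log2 fold changes of -0.09 and 0.10 (SE 0.17 and 0.14).

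Promoters were read for 30 of the 33 genes from RefSeq (build GRCm38.p6, 250 bases before to 50 after each start). The E-box CACGTG, which MYC with MAX and related factors can bind and which is its own reverse complement, was found in 5 genes: Aldh18a1, Impdh2, Paics, Atic and Sms. Of 36 windows of these genes 13.9% held it, and of all 32851 windows 7.15%. The 5 include 3 of the 8 genes that fell and the 1 that rose, so that members with the motif went both ways. The upstream bases of Aldh18a1 and Atic are shown whole, and 30 bases round the motif for Impdh2 and Paics, 5′ to 3′ on the gene's strand with the E-box in capitals. They lie at chr19:40588464-40588713 (minus strand), chr1:71556906-71557155 (plus), chr9:108560315-108560344 (plus) and chr5:76951088-76951117 (plus).
Aldh18a1: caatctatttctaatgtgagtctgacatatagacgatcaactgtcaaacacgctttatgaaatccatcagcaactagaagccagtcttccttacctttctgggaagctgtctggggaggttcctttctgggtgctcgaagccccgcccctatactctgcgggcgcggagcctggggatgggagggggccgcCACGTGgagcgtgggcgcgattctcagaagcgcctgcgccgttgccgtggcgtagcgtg
Atic: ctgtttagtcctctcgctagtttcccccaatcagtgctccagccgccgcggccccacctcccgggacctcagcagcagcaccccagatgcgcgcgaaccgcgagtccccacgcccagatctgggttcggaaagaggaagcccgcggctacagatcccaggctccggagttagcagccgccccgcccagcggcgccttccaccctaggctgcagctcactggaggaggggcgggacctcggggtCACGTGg
Impdh2: agctcgataagCACGTGgttacccagctct
Paics: gcctcggaaagCACGTGgagggacctgctg
The E-box starts 59, 7, 110 and 203 bases before the RefSeq start in these 4 genes. The Impdh2 stretch lies inside the deposited Impdh2 locus, which begins at 108560286, so there the E-box follows the deposited start. The Atic stretch runs to 71557155, past the deposited Atic start at 71557150, which falls within the E-box. The Paics stretch lies inside the deposited Ppat locus, which ends at 76951578.

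The core TGATGNAA of the element bound by ATF4 with C/EBP partners, searched on both strands, was found in Asns, Pycr1 and Prps1, in 8.33% of the windows of these genes and 3.97% of all windows. None of the 3 passed the test. In Asns it lies 23 bases before the RefSeq start, within chr6:7693214-7693243 (minus strand), shown with the match in capitals. That stretch lies inside the deposited Asns locus, which ends at 7693254.
Asns: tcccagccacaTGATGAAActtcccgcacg
The windows of Shmt2, Phgdh, Mthfd1l, Cad, Ctps2 and Odc1 held neither set of letters. That says only that the letters are not in these windows.

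Transcripts of the regulators themselves were lower or mixed. Myc, the transcription factor that raises most of these enzymes in dividing cells, was at 254, 173 and 239 CPM in WT and at 84.7, 79.5, 80.2 and 101 CPM in GOF. It fell with a log2 fold change of -1.36 (SE 0.14, edgeR adjusted p = 0.000178), and WT replicate 2 was again the lowest WT library. Mycn, its relative, had 0 counts in every WT library and 0 to 13 counts per GOF library and was not tested. Among 15 tested genes of MYC partners, antagonists and mTOR complex components 6 fell and 2 rose, with a median of -0.11. The shares of all genes tested were 14.5% lower and 16.8% higher. Mxi1 and Mnt, which oppose MYC on shared sites, fell (log2 fold changes -1.31 and -0.43, adjusted p = 2.42e-05 and 0.00707), while Mxd3, of the same family, rose from 0 to 1 counts per WT library to 16 to 51 per GOF library (adjusted p = 0.00118).

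Of 32 tested genes among other ATF4 targets and the integrated stress response 17 fell and 4 rose, with a median log2 fold change of -0.46. The shares of all genes tested were 14.5% lower and 16.8% higher. Trib3, a pseudokinase induced by ATF4, was at 61.9, 43.3 and 66.1 CPM in WT and at 5.73, 3.07, 6.20 and 4.63 CPM in GOF (log2 fold change -3.54, SE 0.24, adjusted p = 1.66e-05). Slc7a11, the cystine transporter, fell from 55 to 77 counts per WT library to 1 to 4 per GOF library (log2 fold change -4.81, SE 0.47, adjusted p = 0.000116). Among those that rose, Ddit4, an inhibitor of mTORC1, went from 24.9 to 158 CPM and Ppp1r15a, a phosphatase subunit that restores translation, from 123 to 317 CPM (adjusted p = 8.54e-05 and 5.69e-05). Of the 12 tRNA synthetase genes in that list, a subset chosen after values were seen, 10 fell and 0 rose, with log2 fold changes from -1.501 to -0.21. Of the whole list 9 were lower without GOF replicates 1 and 3, 11 without GOF replicates 2 and 4 and 10 without WT replicate 3. In these fits 8.34%, 10.5% and 10.8% of all genes were lower.

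**Figure D5:**
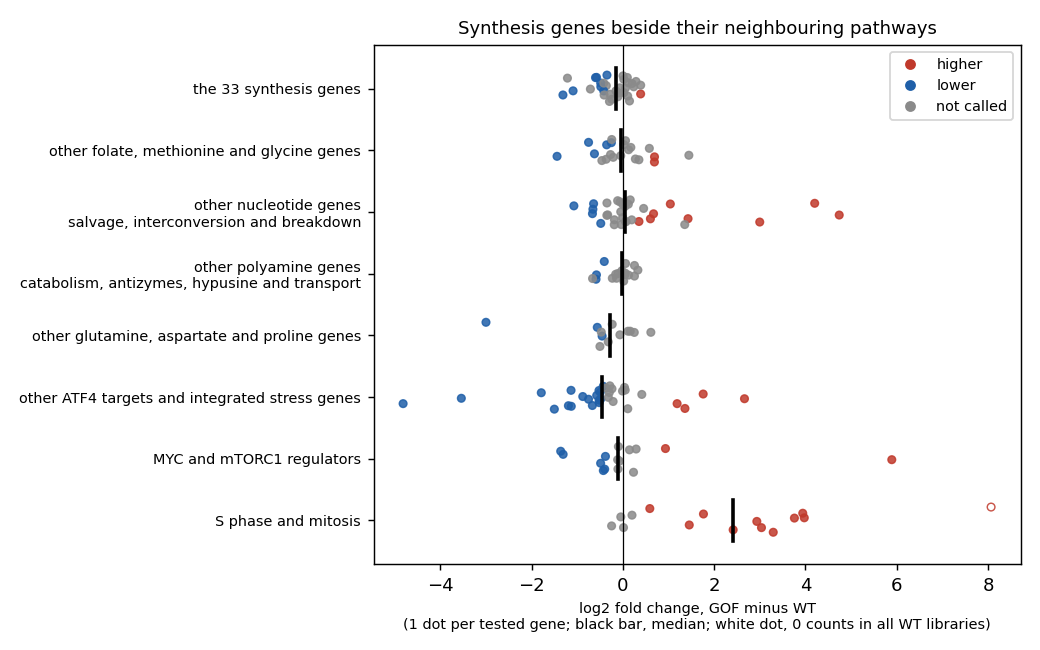
Log2 fold change (x axis, GOF minus WT) of every tested gene of the 33 synthesis genes and of 7 neighbouring lists (y axis), coloured by call, with the median as a black bar. The synthesis genes lie within 1.4 of 0, the ATF4 and stress list reaches -4.81 for Slc7a11, and S phase and mitosis genes have a median of 2.42.

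The rest of the folate, methionine and glycine genes were split, with 5 of 21 lower, 2 higher and a median of -0.05. Of all genes tested 14.5% were lower and 16.8% higher. Sfxn1, the mitochondrial serine carrier that feeds Shmt2, rose from 44.3 to 71.5 CPM (edgeR log2 fold change 0.69, adjusted p = 0.00191). Fpgs, which traps folates in the cell, fell from 36.8 to 21.8 CPM (log2 fold change -0.75, adjusted p = 0.00873). Ahcy, which clears S-adenosylhomocysteine, and Mat2b, a subunit of methionine adenosyltransferase, fell too (log2 fold changes -0.62 and -0.36). Of the glutamine, aspartate and proline genes 3 of 12 fell and 0 rose. These were Gpt2, the mitochondrial alanine transaminase (from 4.47 to 0.551 CPM), Glud1, glutamate dehydrogenase (252 to 184 CPM), and Glul, glutamine synthetase (166 to 112 CPM).

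Nucleotide salvage and interconversion genes went both ways, with 8 of 33 higher, 5 lower and a median of 0.04. Of all genes tested 16.8% were higher and 14.5% lower. Cmpk2, a mitochondrial nucleotide kinase that interferon also induces, rose from 3.50 CPM in WT (SD 0.537, n = 3) to 28.0 CPM in GOF (SD 4.14, n = 4). Adk, adenosine kinase, fell from 61.9 to 29.4 CPM (edgeR log2 fold change -1.07, adjusted p = 0.000112), Uck2, uridine-cytidine kinase, from 187 to 118 CPM, and Prpsap1, a partner of the Prps synthetases, from 77.3 to 49.0 CPM. Of the other polyamine genes 3 of 17 fell and 0 rose. They were Eif5a, the translation factor that carries the polyamine-derived hypusine (604 to 402 CPM), Mri1, of methionine salvage (52.9 to 35.4 CPM), and Oat, ornithine aminotransferase (83.0 to 62.6 CPM).

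S phase and mitosis genes rose in 11 of 15 cases and 0 fell, with a median of 2.42 in edgeR, while 1 of the 33 synthesis genes rose. The shares of all genes tested were 16.8% higher and 14.5% lower. Top2a rose from 4.19 to 34.4 CPM, Mki67 from 2.75 to 27.1 CPM and Cdk1 from 0.444 to 3.45 CPM. Bub1 was at 0 counts in WT and at 1.66 to 2.70 CPM in GOF. The summed level of the 15 genes was 396 to 442 CPM in WT and 497 to 514 CPM in GOF, so that the genes that rose most were those at low levels in WT. With a mean FPKM of at least 5 required, which removes most of them, 2 rose.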

How the data were processed

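For each gene and library the deposited table holds the raw count and the FPKM, per the file headers. HISAT2 2.0.4, Cufflinks 2.1.1, Cuffdiff and build mm10 are listed in the submitters' processing notes. How reads were counted, by strand or at copies, is not given in the sources used here. FPKM equalled the count divided by a fixed gene length and the column total within 0.1% for 100% of values above 0. Groups came from sample titles, and each library is labelled as its own sample, so p-values measure the spread between these samples.

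Counts were tested with edgeR 4.0.16 (R 4.3.3; filterByExpr, TMM, quasi-likelihood, 2 groups, all 7 libraries), which kept 12668 genes, with Benjamini-Hochberg adjustment over all of them and a threshold of 0.05. SEs come from the fold change and F statistic. Alternatives used DESeq2 1.42.0 and limma 3.58.1. Counts were also simulated for all 12668 genes, with 100 altered by 0.5 (log2), 100 altered by 1 and the rest unaltered. There edgeR recovered 14% and 64% of the altered genes, with 5 false calls. In the data 31.3% of genes were called. With so few genes altered the adjustment is stricter than in the data, so these shares do not give the power of the test here. Near-identical copies are transcripts of GENCODE M21 aligned over at least 300 bases at 95% identity. The table's loci are printed as deposited.

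The members and lists were chosen with earlier results of these data known. All members are named; of other lists up to 4 called genes with the smallest p are named, plus Myc and Mycn. A symbol on several rows was taken at the row with most counts.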

Additional observations from a re-analysis of the deposited data

Results flagged for a closer look

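In the GOF group 2 of 38 sets of 4 libraries (the 33 genes and 5 isozyme ratios) had a library far from the other 3, by the gap to its nearest neighbour over the range; chance gives about 1 in 20. Mthfd1 was at 63.7 CPM in GOF replicate 4, below the other GOF libraries, and Amd1 at 33.02 CPM in GOF replicate 3, above them.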

How the results depend on the processing

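Of 552 values of the 33 genes under 17 alternatives, 485 kept their direction and side of the threshold, 28 lost their call, 17 gained one and 22 changed sign, all of genes that were not called. Of 881 values of other named genes 852 kept both and 29 lost their call. The 8 lower and 1 higher calls became 7 and 3 with upper-quartile scaling, 7 and 2 with a floor on the mean FPKM of 5, 6 and 4 in limma with a pseudocount of 1 or 0.1, 3 and 0 without GOF replicates 1 and 3, and 5 and 0 without GOF replicates 2 and 4. Leaving out single libraries gave 5 to 10 lower (5 without GOF replicate 1) and 1 to 2 higher. The shares of all genes were then 10.8% to 14.6% lower and 12.8% to 16% higher. They were 11.4% lower and 19.7% higher with upper-quartile scaling. With the floor they were 16.4% and 16.8%, and in limma with a pseudocount of 1 they were 11% and 20.5%. Over all genes 1093 were higher and 1069 lower with that floor, which leaves 6502 genes, and 1074 and 1050 without GOF replicates 1 and 3, a fit with fewer libraries.

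Signs that changed with other scaling, in limma or without 2 GOF libraries were near 0. Leaving out 1 library moved some genes further, with Shmt1 at -0.16 without WT replicate 1 and Mthfd2 at -0.13 without WT replicate 2. Gart was at 0.015 with upper-quartile scaling and at 0.017 in limma at either pseudocount, and Srm at 0.0099 and 0.011 in limma. Shmt1 was at -0.022 without GOF replicates 1 and 3, Gmps at -0.0037 without GOF replicates 2 and 4, and Impdh2/Impdh1 at 0.0074 without GOF replicates 1 and 3. Without 1 library Shmt1 ran from -0.16 to 0.29, Mthfd2 from -0.13 to 0.20, Umps from -0.021 to 0.065, Gart from -0.16 to 0.039, Pfas from -0.076 to 0.39, Gmps from -0.035 to 0.037 and Srm from -0.27 to 0.027. The causes were not tested.

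With the replicate number as a block in edgeR 6 of the 33 genes were lower and 1 higher, against 12% and 13.2% of all genes. Umps was at -0.018 and Gmps at -0.021, and Phgdh and Paics lost their calls (adjusted p = 0.0623 and 0.0503). Deviations of same-numbered libraries correlated at 0.03, 0.15 and -0.04, so the numbers were not taken to pair mice. Asns and Pycr1 rest on 6 to 49 counts per library and have the largest SEs of the 33 genes.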
